A study of Sus scrofa domesticus with 6 samples.

Results

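The genes described here are the well-expressed rows that the deposited gene table of minipig small intestine types as long noncoding RNA (lncRNA). A row was taken when its type was lncRNA and its FPKM (a level corrected for transcript length and library size) was 5 or more in at least 2 of the 6 libraries, so the members were chosen by their measured FPKM. This rule selected 119 of the 5605 rows typed lncRNA, in a table of 30376 rows. The libraries came from small intestine of wild type Göttingen minipigs aged 6 months, 1 animal each, with 2 animals in each of 3 groups. The control group was not irradiated. The abdomen of the IR animals was exposed to 15 Gy from a cobalt gamma source. The IR_Pra animals had this exposure too and took oral pravastatin for 2 weeks at 40 mg per day. Pravastatin is a statin, a drug that inhibits cholesterol synthesis. All tissue was obtained on day 14.

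Long noncoding RNAs are transcripts of RNA polymerase II that are capped, often spliced and polyadenylated, and that hold no long conserved reading frame. Some act in the nucleus on chromatin, transcription or splicing, some are hosts of microRNAs, and many are made beside the promoter of a protein gene or within its span. They tend to be less abundant than messenger RNAs and to be restricted to fewer cell types. Few of them have been studied in the pig, and most are known only by a LOC number, the placeholder symbol of an uncharacterized locus.

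The type given in the table went against the names of a large share of the members. Of the 119, 38 carry the symbol of a gene known for its protein, such as GSN, EIF4B and HNRNPU. Another 2 have a LOC number and the product name of a protein (LOC106504299, serpin B6, and LOC106504562, glutathione S-transferase alpha M14). These 40 are called the protein-named members below. None of the 119 has a protein accession in the table (0 of 119), and the RefSeq annotation of Sscrofa11.1 also gives lncRNA as the type of all 119, so the label was kept as the name of a row type and not of a function. The other 79 members are uncharacterized LOC numbers. Of the 59 lncRNA-typed rows with a symbol other than a LOC number, MEG3 is the one described in other species as a noncoding RNA, and its highest FPKM was 3.80 and the next 1.43, which left it outside the rule.

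Because the rule used the FPKM values, how high the members are is a description and not a finding. All 119 reached 5 FPKM by the rule, 65 of them in all 6 libraries, 18 in 5, 13 in 4, 8 in 3 and 15 in 2. Of these 15, 5 reached it in the IR libraries alone (LOC100622037, LOC106509952, LOC102161115, LOC100626788 and LOC100525078) and 1 in the control libraries alone (LOC102157709), so these 6 had to differ in that direction. Just inside the rule lay LOC100525078, NHLRC3 and LOC110258334, with a second-highest FPKM of 5.01, 5.06 and 5.11. Just outside lay LOC100525248, LOC106504396 and LOC110259246, with 4.98, 4.98 and 4.95. The mean FPKM over the 6 libraries ran from 3.70 to 298 with a median of 12.2, was 100 or more in 7 members and under 10 in 49. All 119 members passed the filter on low counts, against 1740 of the 5605 lncRNA-typed rows.

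A chromosome was given for 108 of them on Sscrofa11.1, and 11 were unplaced. The placed members included 22 whose span overlapped a protein-coding gene, 31 that lay within 1000 bp of one without overlap, and 25 that lay more than 10000 bp away. Counting every kind of neighbour, 33 members overlapped another annotated gene. Overlap was judged on whole spans, and exons and strand were not compared. Where exons of overlapping genes coincide, their reads may not be told apart. No source used here states whether the counting used strand. The table listed more than 1 transcript for 52 members. The median transcript length implied by counts and FPKM was 1064 nt for the uncharacterized members and 2405 nt for those with a protein symbol.

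The total count per library was 57891859 and 62057508 in control, 62141395 and 73968471 in IR, with 48587645 and 51088099 in IR_Pra. The members made up 0.965% and 0.865% of the control libraries, 0.723% and 0.660% in IR, and 0.762% and 0.758% in IR_Pra. The IR libraries were thus the lowest pair and the control libraries the highest, with no overlap of the groups. A single member, LOC100513133, took 0.473% and 0.324% of the control libraries, 0.153% and 0.0583% of the IR libraries and 0.234% and 0.240% of the IR_Pra libraries. Without it the members' share was 0.491% and 0.541% for control, 0.569% and 0.601% for IR, and 0.528% and 0.518% for IR_Pra, so the order of IR and control turned. As a share of FPKM, which sets transcripts on a per-length scale, the order did not hold either, since IR 2 at 0.645% was then the highest of the 6. The protein-named members held 0.317% and 0.333% in control and 0.401% and 0.456% in IR, with 0.334% and 0.339% in IR_Pra. No test was made of these sums.

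**Figure D1:**
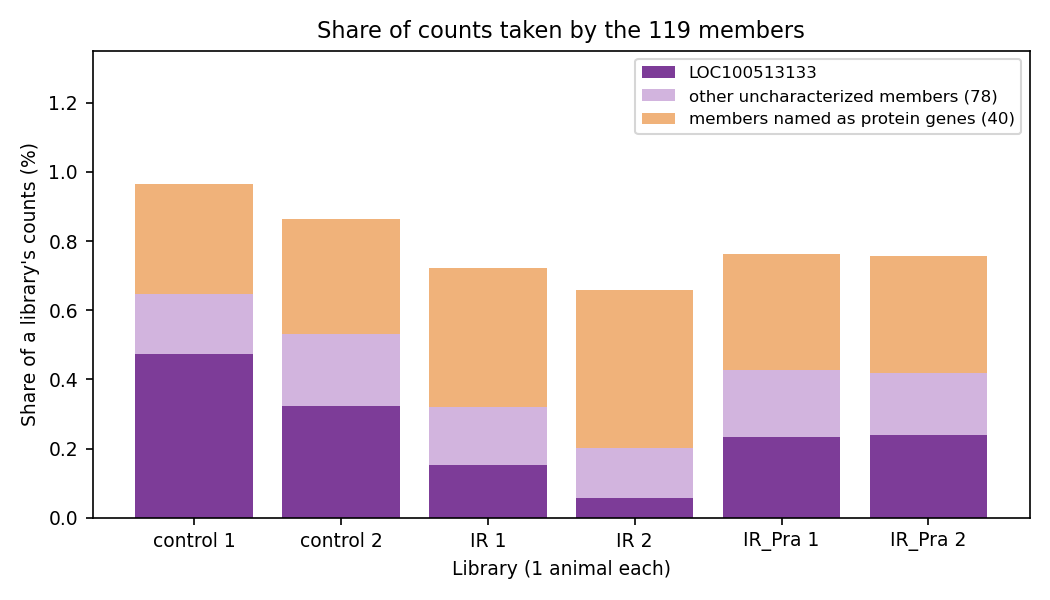
Share of each library's counts (percent, from 0) held by LOC100513133, the other 78 uncharacterized members and the 40 protein-named members, 1 bar per library. The bars of the control libraries reach 0.965% and 0.865%, and their LOC100513133 segments (0.473% and 0.324%) are taller than those of the IR bars (0.153% and 0.0583%).

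LOC100513133 was the most abundant member by mean FPKM. It is an uncharacterized single-transcript locus on Sscrofa11.1 at chr2:6803590-6811708, 11256 bp from FRMD8, its nearest protein-coding gene. Its FPKM was 570.0 and 390 in the control libraries, 186 and 70.6 in IR, and 282 and 289 in IR_Pra. Both IR animals were below all 4 others, and the ratio between the 2 IR animals was larger than that between the control animals. The log2 fold change of IR against control, here and below with its standard error, was -1.76 ± 0.68 and did not pass the test (edgeR, adjusted p = 0.151). IR_Pra was 0.94 ± 0.67 above IR (adjusted p = 0.419).

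The second most abundant member was GSN, named for gelsolin, a protein that severs and caps actin filaments. The FPKM of its row was 161 and 218 in the control animals, 368 and 577 in IR, and 213 and 211 in IR_Pra. Here both IR animals stood above the others, the opposite of LOC100513133, and the difference again missed the threshold (log2 1.38 ± 0.36, adjusted p = 0.0700). LOC100521518, an uncharacterized locus 14 bp from CCDC51 on chromosome 13, had an FPKM of 108 and 111 in control, 185 and 180 in the IR libraries, and 119 and 121 in IR_Pra. The animals of each group lay close together in this locus, and IR was 0.83 ± 0.22 above control on the log2 scale (adjusted p = 0.0730).

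The remaining members among the 8 highest by FPKM were protein-named. EIF4B, named for a factor that helps the initiation complex unwind messenger RNA, stood at 134 and 155 FPKM in control, 61.6 and 98.2 in IR, with 111 and 130 in IR_Pra. Its IR values were the lowest pair (log2 -0.78 ± 0.31, adjusted p = 0.159). SEM1, named for a small proteasome subunit, had 97.7 and 86.8 FPKM for control, 137 and 119 for IR, and 106 and 117 for IR_Pra. CD99, named for a surface glycoprotein of leukocytes and listed on chromosome Y, had 69.8 and 75.3 FPKM in the control animals, 108 and 145 in IR, and 89.6 and 92.3 in IR_Pra. In both rows the IR libraries were highest, without passing the test (adjusted p = 0.185 and 0.0611). The 2 others, LOC106504562 and LOC106504299, were high in 1 IR animal only and are described with the spread between the IR animals.

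Further abundant uncharacterized members did not pass in any comparison. LOC100519934, on chromosome 1 and among the 8 highest by CPM, had 74.5 and 97.95 FPKM in control, 70.2 and 35.1 in the IR libraries, and 195 and 97.0 in IR_Pra, so that 1 IR_Pra animal was the highest of the 6. LOC100624113, on chromosome 7, overlaps HSPA1L, a heat shock protein gene, and had 90.5 and 128 FPKM in control, 77.5 and 106 in the IR libraries, and 76.6 and 84.5 in IR_Pra, with overlap of IR and control. The unplaced LOC102158335 had 88.2 and 78.04 FPKM in control, 79.7 and 139 in the IR libraries, and 71.5 and 54.3 in IR_Pra. LOC100515290, 2913 bp from USP53 on chromosome 8, had 71.3 and 92.8 FPKM in control, 57.0 and 25.1 in the IR libraries, and 70.5 and 70.8 in IR_Pra, with both IR animals lowest (log2 -0.86 ± 0.47, adjusted p = 0.267).

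**Figure D2:**
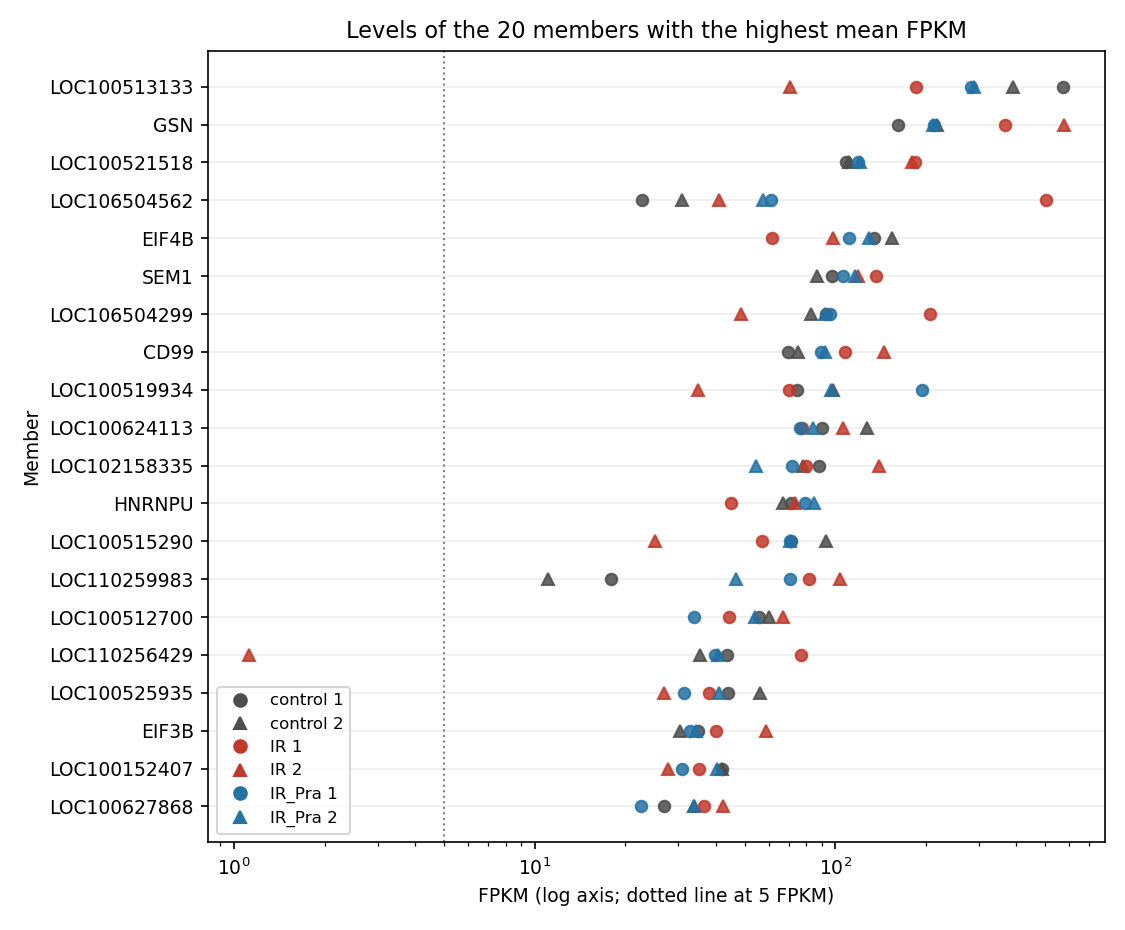
FPKM (log axis) of the 20 members with the highest mean FPKM in each of the 6 libraries, with a dotted line at 5 FPKM. LOC100513133 runs from 70.6 to 570.0 FPKM with the IR libraries lowest, GSN from 161 to 577 with the IR libraries highest, and LOC110256429 falls to 1.12 FPKM in IR 2 alone.

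In the comparison of IR with control, which asks what abdominal irradiation did to the tissue, 9 members rose and 7 uncharacterized members fell. These 16 of 119 make 13.4%, against 6.06% of the 18197 genes tested (3.39% higher and 2.68% lower). Of the 9 that rose, 2 reached 5 FPKM in the IR libraries alone, so the rule itself set their direction. The rule bears on the falls too, since none of the 7 was at 5 FPKM or more in every library. LOC100626264, LOC100510923 and LOC110261497 were below 5 FPKM in both IR libraries. They entered only through libraries of the other groups, where they were high, so their falls are not free of the rule. The members were chosen for high levels, where the test has more counts to work with, and the difference between these shares was not tested. The calls came from 13 of the 79 uncharacterized members (6 higher, 7 lower) and 3 of the 40 protein-named members (3 higher). Among the 65 members at 5 FPKM or more in every library, 4 were called, all higher, which is 6.15% and close to the share of all genes. Members that fell below 5 FPKM in IR could not enter this subset. Its share and the direction of its calls therefore depend on that choice. Of the 1621 other lncRNA-typed rows tested, 39 were called, or 2.41%. The median log2 fold change was 0.18 over the 119 members and 0.03 over all genes tested, and 52 members had an unadjusted p under 0.05, against 30.2% of all genes.

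The threshold was an adjusted p under 0.05 in edgeR's quasi-likelihood test over all genes. The number of calls depended on the fit: DESeq2 called 40 members (21 higher, 19 lower, against 22.7% of all genes), and scaling by library size alone left 9 (against 2.61% of all genes), of which 3 were higher (against 1.0%) and 6 lower (against 1.61%). Leaving out control 1, control 2, IR_Pra 1 or IR_Pra 2 left 0, while leaving out IR 1 gave 49 (against 28.3% of all genes) and IR 2 gave 33 (against 17.5%). The last 2 fits have 1 IR library, which is assumed to vary like the control and IR_Pra libraries, so the spread between the IR animals is not in them. The 16 members kept their direction in each of these fits. Values per library below are CPM, counts divided by library size with TMM factors, which compare libraries within a gene.

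The member with the largest rise was LOC110259230, an uncharacterized single-transcript locus at chr2:4120821-4123519, 267 bp from LOC110259229, which is annotated as a receptor of the mas-related family, a family found on sensory neurons. Its CPM was 1.45 and 2.75 in control, 21.9 and 25.2 in the IR libraries, and 5.56 and 4.56 in IR_Pra. The IR libraries were far above both other groups, and the IR_Pra libraries lay between. The log2 difference of IR from control was 3.48 ± 0.41 (adjusted p = 0.0359). The neighbouring receptor gene had a CPM of 19.3 and 68.4 in control, 152 and 214 in IR, with 74.3 and 29.2 in IR_Pra, and its difference did not pass (log2 2.06 ± 0.71, adjusted p = 0.121).

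LOC110259983 lies at chr3:57266524-57267073 and overlaps LOC100736878, which the table types as a V segment, a part from which an antigen receptor gene is assembled. Its CPM was 3.50 and 2.13 for control, 18.2 and 19.5 for IR, and 12.8 and 8.68 for IR_Pra, so that no group overlapped another (log2 2.74 ± 0.38 for IR against control, adjusted p = 0.0370). The V segment itself rose as well, from 416 and 430 CPM in control to 1908 and 1886 in IR, with 1793 and 1115 in IR_Pra (log2 2.17 ± 0.42, adjusted p = 0.0465). Exons were not compared, so it is not known here whether the rows share reads, and segments of such a family resemble each other. The 6 plasma cell markers (among them JCHAIN and MZB1) summed to 456 and 667 CPM in the control animals, 1359 and 2074 in IR, and 1445 and 956 in IR_Pra, and 1 of the 6 rose in IR. JCHAIN, the joining chain of polymeric antibodies, made up most of that sum: without it the other markers summed to 221 and 184 CPM for control, 259 and 234 for IR, and 273 and 226 for IR_Pra. The log2 fold change in IR was above 0 in 4 of the 6 and below 0 in 2, with a median of 0.67. The part of these cells in this member's change was not tested.

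LOC102161115, at chr12:52420175-52424455, is the 1 member whose span holds microRNAs, MIR195 and MIR497. Its CPM was 2.37 and 3.05 in control, 13.2 and 20.2 in the IR libraries, and 4.33 and 2.81 in IR_Pra, a log2 rise of 2.62 ± 0.40 in IR (adjusted p = 0.0370). The protein-coding gene C12H17orf49 overlaps it and also rose, from 15.8 and 15.5 to 36.5 and 33.9 CPM (log2 1.17 ± 0.22, adjusted p = 0.0456). The microRNA rows themselves were near empty: MIR497 had a CPM of 0 in all 6 libraries and MIR195 one of 0.0528 in IR 2 and 0 elsewhere, so these libraries do not measure the mature microRNAs.

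LOC106509952, with 13 transcripts at chr4:12188207-12409059, has MYC as its nearest protein-coding gene, at 46082 bp; MYC encodes a transcription factor that drives growth and proliferation. The CPM of the locus was 4.12 and 3.43 in control, 10.8 and 12.9 in IR, with 5.77 and 5.82 in IR_Pra (log2 1.65 ± 0.30, adjusted p = 0.0423). MYC stood at 38.4 and 41.7 CPM for control, 39.5 and 51.9 for IR, and 46.5 and 46.4 for IR_Pra, and did not pass (log2 0.19 ± 0.23, adjusted p = 0.615). LOC102161115 and LOC106509952 reached 5 FPKM in the IR libraries alone, so the rule itself required them to be higher there.

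The other 2 uncharacterized members that rose were LOC102162054 and LOC110255757. LOC102162054, with 20 transcripts on chromosome 1 and no protein-coding gene nearer than 111776 bp, went from 3.93 and 3.30 CPM in control to 11.9 and 13.2 in IR, with 4.62 and 6.68 in IR_Pra (log2 1.80 ± 0.33, adjusted p = 0.0432). LOC110255757, on chromosome 11, went from 5.07 and 3.87 to 15.0 and 13.6 CPM, with 4.65 and 4.31 in IR_Pra (log2 1.68 ± 0.30, adjusted p = 0.0423). In both loci the IR libraries were above all others, and the IR_Pra libraries were nearer to control than to IR.

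The 3 protein-named members that rose were MARVELD1, TSSC4 and SWI5. MARVELD1 is named for a membrane protein with a MARVEL domain that associates with microtubules. Its CPM was 38.2 and 43.3 in the control animals, 116 and 159 in IR, and 65.6 and 56.8 in IR_Pra (log2 1.75 ± 0.26, adjusted p = 0.0370). TSSC4 is named for a protein that takes part in assembly of a spliceosomal particle, and it went from 23.1 and 20.5 CPM in control to 65.1 and 78.5 in IR, with 17.9 and 18.7 in IR_Pra (log2 1.72 ± 0.23, adjusted p = 0.0370). SWI5 is named for a partner in homologous recombination repair of DNA breaks. Its CPM was 10.7 and 11.5 in control, 31.6 and 34.9 in the IR libraries, and 11.3 and 11.6 in IR_Pra (log2 1.58 ± 0.23, adjusted p = 0.0370), and its span on chromosome 1 overlaps GOLGA2. For TSSC4 and SWI5 the 2 animals of each group lay close together and IR stood far above both other groups.

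Several cell type markers were higher in the same IR libraries. The 8 macrophage markers summed to 719 and 732 CPM in control, 3495 and 3731 in IR, with 1233 and 1847 in IR_Pra, with 6 of 8 called higher in IR. The 8 smooth muscle markers summed to 6206 and 12650 CPM for control, 33130 and 70610 for IR, and 21050 and 14350 for IR_Pra, with 1 called. The 7 neuron and glia markers summed to 35.3 and 46.9 CPM in the control animals, 141 and 261 in IR, and 47.8 and 49.7 in IR_Pra, with 2 called. Markers of fibroblasts, skeletal muscle, endothelium and red blood cells also summed higher in both IR libraries than in both control libraries. In this order, 0 of 6, 2 of 5, 1 of 6 and 0 of 3 were called higher. The log2 fold change was below 0 in 1 fibroblast and 1 endothelial marker. None of these markers was at 0 in every library, and the part of these cell types in the rises was not tested. In whole tissue, more cells of a type and more RNA per cell cannot be told apart, nor can fewer cells and less RNA per cell.

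**Figure D3:**
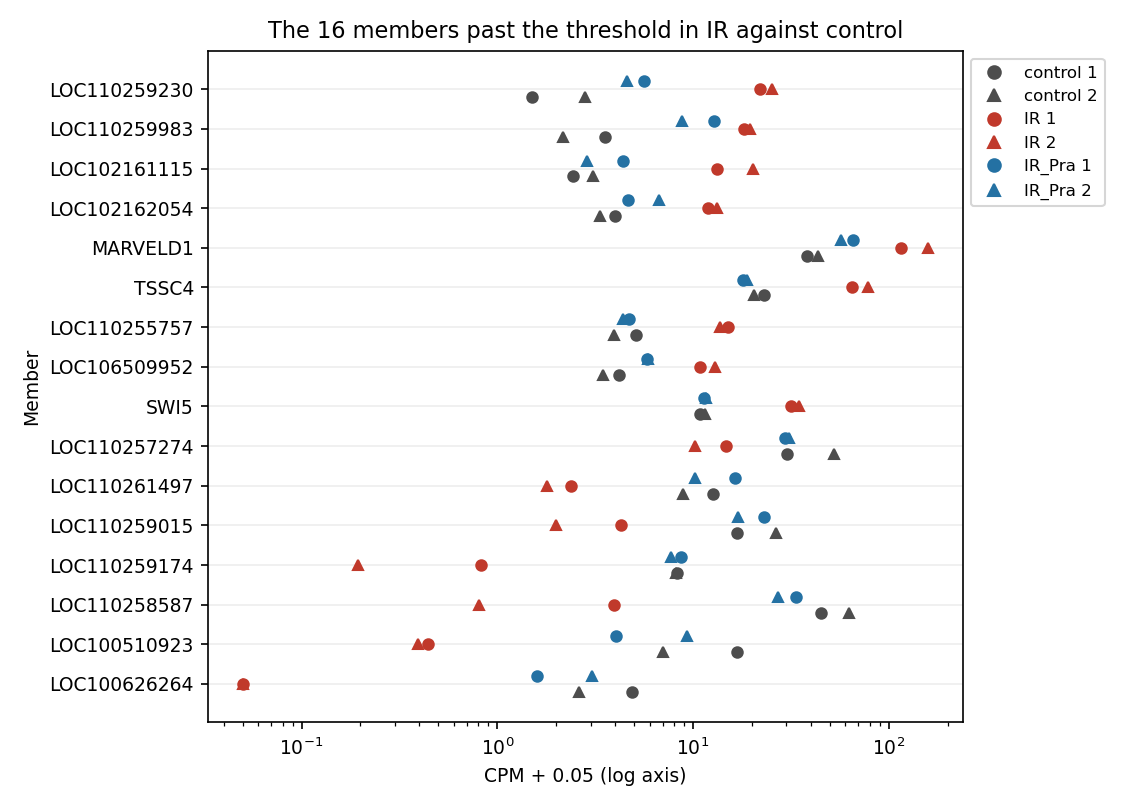
CPM plus 0.05 (log axis) in each library for the 16 members past the threshold in IR against control, ordered by log2 fold change. In the upper 9 rows both IR libraries lie to the right of the control and IR_Pra libraries, in the lower 7 to the left, and LOC100626264 sits at 0 counts in IR.

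All 7 members that fell were uncharacterized. LOC100626264, at chr15:38096027-38099470 with DEFB1 (a defensin, an antimicrobial peptide) 18128 bp away, had 4.83 and 2.57 CPM in control, 0 and 0 in the IR libraries, and 1.54 and 2.98 in IR_Pra. Summed over its libraries, the control group had 441 counts, IR_Pra 239 and IR 0. With a floor of 3 counts over the IR group, IR was at least 158-fold lower than control (adjusted p = 0.0370) and at least 98.2-fold lower than IR_Pra (adjusted p = 0.0754, not past the threshold).

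LOC100510923, at chr10:14544284-14551457, overlaps PSEN2, which encodes a catalytic subunit of gamma-secretase. Its CPM was 16.7 and 6.99 in control, 0.390 and 0.343 in IR, with 3.98 and 9.27 in IR_Pra (log2 -5.01 ± 0.69, adjusted p = 0.0370). PSEN2 went the other way without passing, at 15.96 and 22.6 CPM in control and 32.1 and 37.0 in IR (log2 0.84 ± 0.26, adjusted p = 0.101), so the fitted changes of the overlapping rows had opposite signs.

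Of the unplaced members, 3 fell. LOC110258587 had a CPM of 45.0 and 62.4 for control, 3.88 and 0.753 for IR, and 33.4 and 27.2 for IR_Pra (log2 -4.54 ± 0.79, adjusted p = 0.0413). LOC110259174 had 8.21 and 8.14 in the control animals, 0.780 and 0.145 in IR, and 8.61 and 7.71 in IR_Pra (log2 -4.17 ± 0.75, adjusted p = 0.0423). LOC110259015 had 16.8 and 26.6 in control, 4.22 and 1.94 in the IR libraries, and 22.9 and 17.0 in IR_Pra (log2 -2.82 ± 0.48, adjusted p = 0.0408). In these 3 rows both IR_Pra libraries were far above IR, and IR 2 was the lowest library each time.

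The 2 remaining members that fell lie beside protein-coding genes that fell too. LOC110261497, at chr7:24321506-24324376, is 259 bp from LOC100155579, annotated as a butyrophilin-like protein, a family that regulates intraepithelial T cells. The CPM of the locus was 12.5 and 8.81 in control, 2.32 and 1.74 in IR, with 16.3 and 10.2 in IR_Pra (log2 -2.39 ± 0.39, adjusted p = 0.0391). The butyrophilin-like gene had 217 and 193 CPM for control, 48.2 and 21.2 for IR, and 212 and 182 for IR_Pra (log2 -2.56 ± 0.43, adjusted p = 0.0396), so both genes of this pair stood low in IR alone.

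LOC110257274, at chr16:72791450-72796322, is 131 bp from SEMA5A, which encodes a semaphorin, a guidance protein. It had 30.2 and 52.3 CPM in the control animals, 14.7 and 10.2 in IR, and 29.5 and 30.9 in IR_Pra (log2 -1.73 ± 0.35, adjusted p = 0.0489). SEMA5A had 69.0 and 76.8 CPM in control, 29.3 and 19.4 in the IR libraries, and 41.3 and 49.1 in IR_Pra (log2 -1.58 ± 0.28, adjusted p = 0.0423). Of the 16 called members this one had the highest adjusted p, and its call ended in 13 of the 17 other fits, such as limma voom (adjusted p = 0.0550) and edgeR without a filter on low counts (adjusted p = 0.0540). Over the 17 fits the adjusted p ran from 0.000881 with DESeq2 to 0.238 in edgeR without control 1, and the direction held in each. The other called members also lost their calls in part of these fits, from 6 (such as LOC110259230) to 9 (such as LOC102161115).

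Markers of lymphocytes were also low in IR. The 7 B cell markers measured (among them MS4A1 and PAX5) summed to 426 and 253 CPM in control, 17.9 and 17.1 in IR, with 140 and 356 in IR_Pra, and 6 of the 7 fell in IR. The 8 T cell markers summed to 300 and 195 CPM for control, 149 and 67.6 for IR, and 164 and 250 for IR_Pra, and 2 of the 8 fell. The log2 fold change in IR was below 0 in all 7 B cell markers and in 7 of the 8 T cell markers. It was above 0 in 1 T cell marker. In IR 1, 1 of the 8 T cell markers stood above both control libraries. The part of these cells in the falls of the 7 members was not tested.

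The protein-named members that did not pass are given by their role. Of the 6 in RNA processing and export (PRPF38A, SNRPB, HNRNPU, TROVE2, NUP58 and THOC5), 0 passed, with a median log2 fold change of -0.06 in IR against control. SNRPB, named for a core protein of spliceosomal particles, stood at 73.5 and 73.0 CPM in control and 105 and 113 in IR (log2 0.57 ± 0.20, adjusted p = 0.131). HNRNPU, named for a nuclear RNA-binding scaffold protein, stood at 322 and 304 CPM in the control animals, 220 and 317 in IR, and 332 and 345 in IR_Pra, with overlap of IR and control. The 3 translation initiation rows (EIF4B, EIF3B and EIF2B4) had 0 calls, with EIF3B at 150 and 128 CPM in control and 197 and 245 in IR and EIF4B on the other side.

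Among the 5 rows named for protein turnover, 0 passed. POMP, named for a chaperone of proteasome assembly, had 38.2 and 38.1 CPM in control, 88.0 and 64.6 in the IR libraries, and 43.8 and 44.6 in IR_Pra (log2 0.999 ± 0.24, adjusted p = 0.0622). ITCH, named for a ubiquitin ligase, had 61.0 and 44.6 CPM in control, 20.1 and 21.6 in IR, with 57.6 and 33.9 in IR_Pra (log2 -1.34 ± 0.33, adjusted p = 0.0654). These 2 rows had separated groups in opposite directions. SEM1, ZNRF1 and COPS7B were the other members of this role.

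Of the 4 mitochondrial rows (TIMM10, MRPS12, MARC2 and SMIM4) and the 5 of membrane traffic (TGOLN2, STX8, MTMR6, ZDHHC4 and BORCS5), 0 passed. MRPS12, named for a protein of the mitochondrial ribosome, had 20.3 and 18.7 CPM in control and 46.4 and 27.1 in IR (log2 0.91 ± 0.31, adjusted p = 0.121). TGOLN2, named for a membrane protein of the trans-Golgi network, had 245 and 232 CPM for control, 163 and 102 for IR, and 210 and 187 for IR_Pra (log2 -0.85 ± 0.30, adjusted p = 0.127). TGOLN2 overlaps RETSAT, whose difference was smaller (log2 -0.30 ± 0.51). The 4 rows of metabolism, transport and signalling (ISYNA1, RARG, SLC7A5 and POMK) had 0 calls, and ISYNA1, named for the enzyme that makes inositol phosphate from glucose phosphate, came nearest at 14.8 and 11.4 CPM in control and 26.9 and 47.8 in IR (log2 1.51 ± 0.35, adjusted p = 0.0593).

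The 4 rows named for leukocyte and surface proteins (CD99, IL3RA, ITGAX and GIMAP5) had 0 calls and a median log2 fold change of 1.08. IL3RA, named for a subunit of the interleukin-3 receptor, had 16.3 and 13.1 CPM in the control animals, 33.3 and 36.9 in IR, and 11.9 and 19.9 in IR_Pra (log2 1.25 ± 0.32, adjusted p = 0.0697). ITGAX, named for the integrin chain CD11c of dendritic cells and macrophages, had 32.5 and 24.7 CPM in control, 21.6 and 111 in the IR libraries, and 31.9 and 44.5 in IR_Pra, so only IR 2 was high. GIMAP5, named for a GTPase needed for lymphocyte survival, ranged from 13.6 to 20.7 CPM over the 6 libraries. PDS5A, named for a regulator of cohesin, did not pass either, at 65.7 and 57.3 CPM in control and 27.2 and 38.7 in IR (log2 -0.90 ± 0.29, adjusted p = 0.104). NHLRC3 and C1H18orf32 had adjusted p-values of 0.117 and 0.968.

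The 2 IR animals differed from each other in many members. A difference of 4-fold or more in CPM between the IR libraries was found in 16 of the 119 members (13.4%), against 12.3% of all genes tested, and in 15 of the 16 IR 1 was the higher. Over all genes tested, 7.26% differed this much with IR 1 the higher and 5.07% with IR 2 the higher. Between the control libraries such a difference was found in 2 members (LOC110255847 and LOC100517116, against 4.62% of all genes) and between the IR_Pra libraries in 1 (LOC106507761, against 4.34%). The spread between the IR animals was thus about that of all genes in the number of members, with more of them higher in IR 1; the difference from all genes was not tested.

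LOC106504562, with the product name of a glutathione S-transferase (an enzyme that conjugates foreign compounds to glutathione), had a CPM of 28.2 and 37.7 in control, 712 and 49.2 in IR, with 71.0 and 68.4 in IR_Pra. Its height in IR came from 1 animal, and the log2 difference of 3.53 ± 1.12 did not pass (adjusted p = 0.105). The locus belongs to a multigene family and lies 3032 bp from GSTA1, so reads shared between copies may be split. LOC106504299, with the product name of serpin B6, a protease inhibitor, had 140 and 165 CPM for control, 342 and 79.0 for IR, and 191 and 181 for IR_Pra.

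Several uncharacterized members had the shape of LOC106504299. LOC110256429, 15670 bp from MORC1 on chromosome 13, had 53.4 and 42.5 CPM in the control animals, 108 and 1.33 in IR, and 45.4 and 47.5 in IR_Pra. LOC106507664, on chromosome 6, had 18.2 and 21.96 in control, 80.4 and 2.51 in the IR libraries, and 24.5 and 23.1 in IR_Pra. LOC110262031, which overlaps FGFRL1 on chromosome 8, had 19.4 and 18.7 in control, 40.6 and 1.33 in IR, with 10.4 and 12.4 in IR_Pra. In these 3 loci 1 IR animal was the highest of the 6 and the other the lowest, so their mean differences (adjusted p = 0.947, 0.605 and 0.953) describe neither animal.

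In other loci both IR animals were below control and IR 2 was lower still. LOC106509010, 37 bp from the nucleoside transporter gene SLC28A2, had 16.1 and 34.5 CPM for control, 7.86 and 0.383 for IR, and 8.11 and 15.0 for IR_Pra. LOC100626416 had 12.3 and 21.4 in the control animals, 7.89 and 0.462 in IR, and 8.44 and 7.41 in IR_Pra. LOC100622227 had 12.0 and 18.8 in control, 7.60 and 0.290 in the IR libraries, and 19.6 and 15.5 in IR_Pra. None of these 3 passed the test (adjusted p = 0.213, 0.273 and 0.320).

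The summed level of absorptive enterocyte markers also differed between the same 2 animals: the 9 measured summed to 21830 and 23940 CPM in control, 48610 in IR 1 and 982 in IR 2, and 16370 and 16390 in IR_Pra. A few abundant genes carry this sum, and they did not move alike. FABP1, a fatty acid binding protein, had 149 and 91.1 CPM in control, but 12260 in IR 1 and 110.0 in IR 2. ANPEP, a brush border peptidase, had 12080 and 13810 CPM in control and was lower in both IR animals, at 3546 and 216. LCT, the lactase gene, was low throughout and went the other way between the IR animals, with 0.520 CPM in IR 1 and 1.11 in IR 2. Of the 9 markers, 8 were higher in IR 1 than in IR 2; in IR 1, 4 stood above both control libraries and 5 below both, while in IR 2, 8 stood below both. The median log2 fold change of the 9 in IR against control was -1.41. The 10 markers of epithelium, each higher in IR 1 than in IR 2, summed to 8164 and 9293 CPM in control, 8376 in IR 1 and 1598 in IR 2, and 9547 and 7640 in IR_Pra. None of the 9 and none of the 10 was called in IR against control (0 in each list). The part of the epithelial share of the samples in the members' spread was not tested. The members were also split at their median transcript length, 1309 nt. In IR 1 the median log2 ratio to the control mean was 0.50 for the shorter members and -0.04 for the longer ones. In IR 2 the values were -0.04 and -0.10. The uncharacterized members were shorter in the median than those with a protein symbol, and length was not separated from this class. A relation of length to the epithelial markers or to the spread was not tested.

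**Figure D4:**
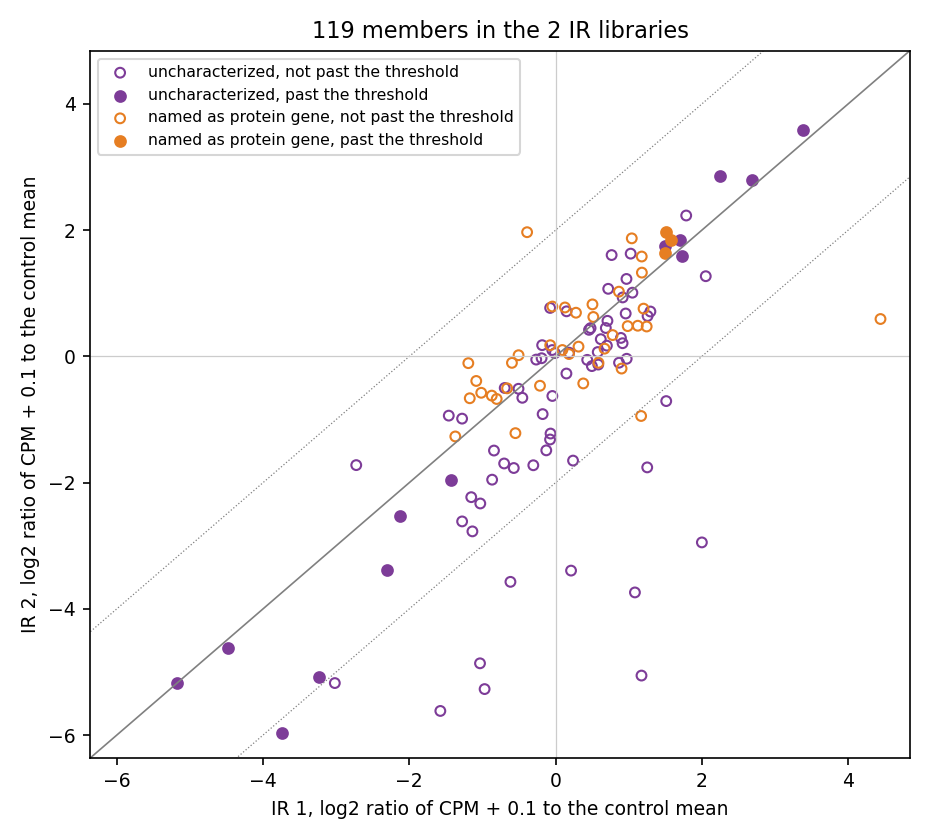
Log2 ratio of CPM plus 0.1 to the control mean in IR 1 (x axis) and IR 2 (y axis) for the 119 members, with a solid line of equality and dotted lines 4-fold to either side. The 16 members past the threshold (filled) lie in the upper right and lower left quadrants, while most open points beyond the dotted lines lie below, higher in IR 1.

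The comparison of IR_Pra with IR asks whether pravastatin changed the irradiated tissue. None of the 119 members passed in edgeR (0 of 119, against 0.0055% of all genes, which is 1 gene). At an unadjusted p under 0.05 there were 45 members, against 24.5% of all genes, and the lowest adjusted p of a member was 0.0754. DESeq2 called 33 members (14 higher, 19 lower, against 15.9% of all genes) and limma voom 0, and edgeR called 38 without IR 1 (against 19.7%) and 29 without IR 2 (against 12.4%), again with a single IR library and no spread between IR animals in the fit. The median log2 fold change was -0.29 over the members and -0.02 over all genes. Scaling by library size alone moved the median of all genes in this comparison to 0.14 and that of the members to -0.14.

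The members with the smallest p in this comparison are named although they did not pass. On the higher side of IR_Pra were LOC100626264 (given above as a bound), LOC110261497 (log2 2.71 ± 0.40), LOC100510923 (4.17 ± 0.67), LOC110259015 (2.70 ± 0.48) and LOC110259174 (4.17 ± 0.75). On the lower side were TSSC4 (log2 -1.97 ± 0.23), SWI5 (-1.54 ± 0.23), LOC110259230 (-2.22 ± 0.39), LOC102161115 (-2.23 ± 0.40) and LOC110255757 (-1.67 ± 0.30). Their adjusted p ran from 0.0754 to 0.0777. This comparison and that of IR with control share the IR libraries, so the 2 sets of values are not independent.

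In the comparison of IR_Pra with control, 0 of 119 members passed in edgeR, as did 0.0% of all genes, and 3 members had an unadjusted p under 0.05, against 3.42% of all genes. These were LOC110259983 (log2 1.93 ± 0.37), LOC110258383 (1.84 ± 0.49) and LOC110259230 (1.27 ± 0.38), all with an adjusted p of 0.9998. DESeq2 called 1 member, LOC110259983, against 0.396% of all genes. LOC110258383, an unplaced uncharacterized locus, was the 1 of the 3 not called in IR against control: its CPM was 0.762 and 1.24 in control, 1.73 and 3.17 in IR, with 3.90 and 3.28 in IR_Pra, so that IR_Pra was the highest group. On the lower side the smallest p-values belonged to LOC100624113 (log2 -0.50 ± 0.26), LOC102157709 (-0.94 ± 0.56), LOC102158335 (-0.47 ± 0.28), C1H18orf32 (-0.59 ± 0.37) and LOC110259924 (-1.42 ± 0.89). The median over the members was -0.09.

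Some members hardly varied over the 6 libraries. THOC5, named for a subunit of the complex that exports messenger RNA, lay between 45.1 and 55.0 CPM. PRPF38A, named for a spliceosome protein, lay between 30.9 and 35.1. The uncharacterized LOC100515792, LOC110255511 and LOC100621455 lay between 27.5 and 34.7, 24.8 and 32.04, and 14.7 and 19.4. These 5 had the smallest ratio of highest to lowest library. The widest ratios belonged to LOC100626264 (0 counts in IR), LOC110255847, LOC106507761, LOC106509010 and LOC110258587. LOC110255847, on chromosome 11, was low in 1 control animal and not the other, at 0.225 and 44.8 CPM for control, 7.11 and 4.32 for IR, and 35.0 and 29.3 for IR_Pra. LOC106507761, 17739 bp from CLMN, had 4.99 and 10.8 in the control animals, 0.817 and 0.106 in IR, and 1.47 and 5.97 in IR_Pra (log2 -4.13 ± 1.14 for IR against control, adjusted p = 0.0789).

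Over the 104 placed members whose nearest protein-coding gene was tested, the log2 fold changes of IR against control for a member and its neighbour had a Spearman correlation of 0.344. It was 0.0943 over the 22 overlapping pairs, 0.599 over the 31 pairs within 1000 bp without overlap (20 of which had the same sign) and 0.531 over the 24 pairs more than 10000 bp apart. The pairs share all 6 libraries and some share a neighbour, so these are descriptions across genes. Closeness did not order the values, since the most distant pairs were about as alike as the close ones.

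Among the close pairs, LOC106509868 lies 77 bp from EMILIN1, which encodes a glycoprotein of elastic fibres. The locus had 9.97 and 21.2 CPM in control, 50.5 and 68.8 in the IR libraries, and 13.0 and 9.40 in IR_Pra (log2 1.93 ± 0.43, adjusted p = 0.0555). LOC106504691 lies 521 bp from CXCL8, which encodes a chemokine that attracts neutrophils, and had 23.2 and 27.5 CPM in control, 10.4 and 4.04 in IR, with 49.3 and 29.2 in IR_Pra (log2 -1.82 ± 0.51, adjusted p = 0.0804). In IR against control both loci had separated groups and missed the threshold. EMILIN1 itself rose in IR, from 99.3 and 149 CPM in control to 548 and 1318, with 234 and 164 in IR_Pra (log2 2.91 ± 0.53, adjusted p = 0.0432). CXCL8 had 22.9 and 15.1 CPM in control, 21.4 and 11.9 in the IR libraries, with 20.1 and 13.7 in IR_Pra, and did not separate the groups (log2 -0.19 ± 0.40, adjusted p = 0.781). These 2 were chosen after their values were seen.

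**Figure D5:**
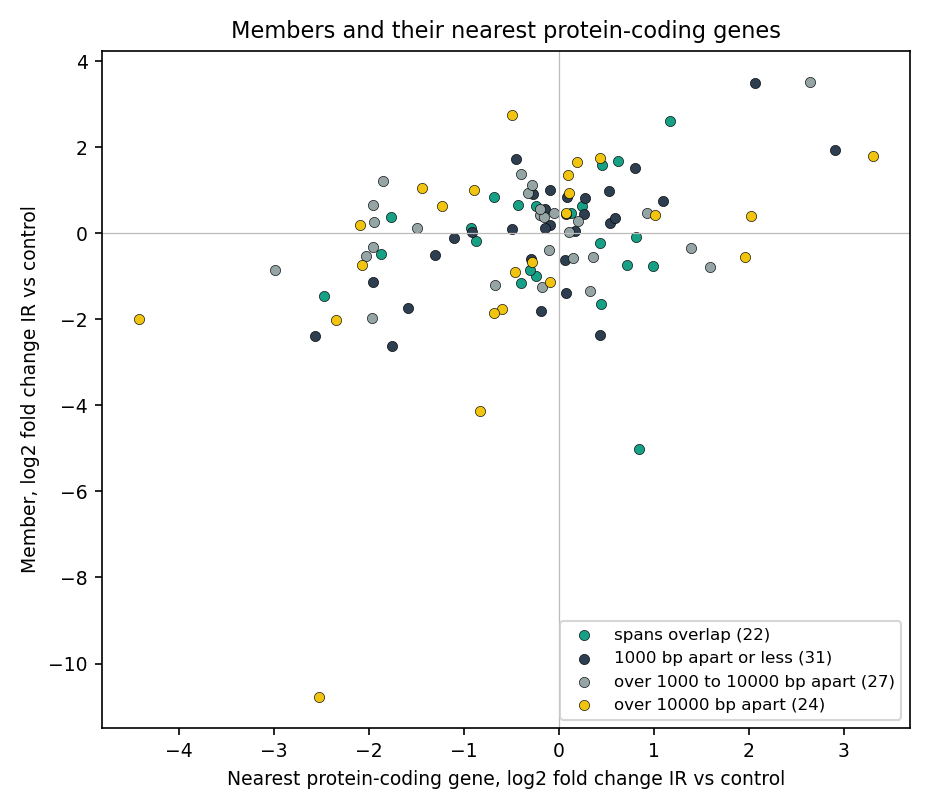
Log2 fold change of IR against control for 104 members (y axis) and their nearest protein-coding genes (x axis), coloured by distance. The 31 pairs within 1000 bp and the 24 pairs over 10000 bp apart both run from lower left to upper right, and the lowest point, LOC100626264, is a fitted value of a row with 0 counts in IR and no measure of size.

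Proteins that handle noncoding RNA were measured as lists beside the members. Of the 8 core proteins of small nucleolar particles 0 passed in IR against control, of the 9 paraspeckle and speckle proteins 0, of the 8 partners of X inactivation and chromatin RNA 0 (a list that includes the member HNRNPU), and of the 7 proteins of the nuclear exosome 0. The median log2 fold change was 0.13, -0.34, -0.55 and 0.16 for the lists in this order, against 0.03 over all genes. In IR_Pra against IR and IR_Pra against control, 0 members of these lists passed.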

How the data were processed

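Read counts and FPKM per gene for 6 libraries were taken from the deposited table; per the file headers the authors give whole read counts and FPKM in separate columns. Per the submitters' processing notes the authors used bcl2fastq 2.20.0, Trimmomatic (no version named), HISAT2 2.1.0 and StringTie 2.1.3b, and 2 builds, Sscrofa11.1 and GRCh38, whose roles are not stated. No source used here says how whole counts were made or whether strand was used. All 30352 rows with a gene name matched the RefSeq table of Sscrofa11.1 by Entrez ID, which gave positions and neighbours. The 24 rows without a name held 0.00906% to 0.0385% of a library's counts and were left out. The labels abbreviate the drug as PS or Pra, and either was taken to mean pravastatin.

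Counts were fitted in R 4.3.3 with edgeR 4.0.16 (quasi-likelihood, filterByExpr by group, TMM factors), all 6 libraries in 1 fit with a term per group, 18197 genes and 3 residual degrees of freedom; the common biological coefficient of variation was 0.431. Tests were two-sided, with Benjamini-Hochberg adjustment across the genes of a comparison and a threshold of 0.05. Standard errors follow from the F statistic. The script was tested on simulated data. Libraries are separate animals and the labels give no pairing by replicate number, so the main fit had none. The p-values cover the spread between 2 animals a group. The depth of 48587645 to 73968471 counts per library keeps counting error small for members with many counts, and the number of animals limits precision. Counting error is larger where counts were few, as in LOC100510923 with 21 and 26 counts in the IR libraries.

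Named are members with a symbol, the highest by FPKM, those past the threshold or with the smallest p in a comparison, the steadiest and widest, those at the edge of the rule, and nearest genes where a result turns on them. The members and lists were chosen with earlier results of these data known. Alternatives were DESeq2 1.42.0, limma 3.58.1 (voom on counts, and trend on log2 of the deposited FPKM plus 1 or 0.1), other scaling, filters, samples and member rules, and, chosen after seeing the data, the legacy edgeR fit and subsets of members by name. No sequences were printed, and no genome was used here.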

Additional observations from a re-analysis of the deposited data

How the results depend on the processing

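Of the 119 members, 16 passed in IR against control. This count was 9 with library size alone (3 higher, 6 lower; 2.61% of all genes), 8 with limma trend on log2(FPKM + 1) (2.21%), 40 with DESeq2 (22.7%), and 0 with the 4 libraries of the comparison alone. Leaving out 1 library in turn gave 0 to 49 (0 without either control or either IR_Pra library, 49 without IR 1, 33 without IR 2; the last 2 rest on 1 IR library). Other member rules, against 6.06% of all genes, gave 9 of 79 (10 FPKM), 29 of 259 (2 FPKM) and 3 of 40 (protein-named members alone). In IR_Pra against IR, where 0 passed, DESeq2 gave 33 and leaving out a library 0 to 38. In IR_Pra against control, where 0 passed, DESeq2 gave 1. The cause of these differences was not tested. The fits of fewer libraries leave fewer residual degrees of freedom, whichever group the library left out belonged to. A fit with the replicate number as a replicate block gave 0 members in IR against control. Deviations of same-numbered libraries correlated at 0.0812, -0.11 and -0.0909 in the 3 pairs of groups, so no shared deviation was seen. With 2 libraries a group, these values cannot exclude a shared batch. All 16 members kept their sign in every alternative that fitted them. As a share of FPKM in place of counts, the members held 0.569% and 0.610% in control, 0.569% in IR 1, and 0.565% and 0.541% in IR_Pra; IR 2, at 0.645%, was the highest of the 6, so the order of IR and control by counts did not hold by FPKM. With 2 animals a group, smaller differences may go undetected, most of all between the unlike IR animals.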
